A study of Mus musculus with 24 samples.

Results

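Fatty acid oxidation was followed through 39 genes that span the pathway from cell entry to the last thiolysis step in mitochondria and peroxisomes. The members were taken by name from a list of pathway genes, and all 39 were found among the 53392 genes of the deposited tables. All 39 passed the filter on low counts in each fit. RNA sequencing had been performed on kidneys of FVB mice, an albino inbred strain, of both sexes. Each sex was compared after a sham procedure without injury and after acute kidney injury, which the series title calls ischemic, in proximal tubules and in an endothelial preparation. The tubules had been collected by microdissection after enzymatic digestion, and the endothelial preparation had been pulled down on microbeads against CD31, an endothelial surface protein. Each of the 8 groups held 3 libraries, except the sham female endothelial group with 2. No genetic alteration or drug is named in the labels, and the mice's age, the length of ischemia and the time of collection after it are not given in the sources used here.

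The proximal tubule reabsorbs most of what the glomerulus filters, and oxidation of fatty acids is its main source of ATP. Fatty acids are taken up and joined to coenzyme A, moved into the mitochondrion as carnitine esters, and shortened in repeated cycles of dehydrogenation, hydration, a further dehydrogenation and thiolysis, with electrons passed on through electron transfer flavoprotein. Peroxisomes shorten very long, branched and bile acid side chains, and yield hydrogen peroxide that catalase breaks down. The nuclear receptor PPARα switches many of these genes on, and loss of the pathway from tubules is a known feature of kidney injury. In rodents, many genes of the straight segment of the proximal tubule also respond to androgen.

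Upstream sequences are shown for 3 members on which the results below turn. Pecr encodes the peroxisomal trans-2-enoyl-CoA reductase and differed in its injury response between the sexes, Hao2 encodes a peroxisomal 2-hydroxyacid oxidase and had the most negative change of the members after injury in males, and Acot12 encodes an acetyl-CoA hydrolase with the most positive sex difference of the members in sham tubules. Each run holds the 250 bases before the RefSeq start on build GRCm38.p6, written 5′ to 3′ on the gene's own strand. In Acot12, at chr13:91741271-91741520 on the plus strand, capitals mark the best match on either strand to AGGTCANAGGTCA, the direct repeat bound by PPARα with its partner RXR. In Hao2, at chr3:98893231-98893480 on the minus strand, capitals mark a match to GTTAATNATTAAC, the palindrome bound by HNF1 factors. In Pecr, at chr1:72284322-72284571 on the minus strand, neither motif matched within 2 mismatches and nothing is in capitals.
Acot12: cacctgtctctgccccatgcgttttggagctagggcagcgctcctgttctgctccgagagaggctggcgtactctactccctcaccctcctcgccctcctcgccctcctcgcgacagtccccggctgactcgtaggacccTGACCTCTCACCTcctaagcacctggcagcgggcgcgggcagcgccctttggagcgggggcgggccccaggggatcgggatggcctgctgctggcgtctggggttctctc
Hao2: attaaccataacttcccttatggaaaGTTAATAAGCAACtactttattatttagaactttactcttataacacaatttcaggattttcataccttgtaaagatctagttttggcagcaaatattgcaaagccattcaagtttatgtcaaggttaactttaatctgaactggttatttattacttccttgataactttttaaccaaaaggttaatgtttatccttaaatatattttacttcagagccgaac
Pecr: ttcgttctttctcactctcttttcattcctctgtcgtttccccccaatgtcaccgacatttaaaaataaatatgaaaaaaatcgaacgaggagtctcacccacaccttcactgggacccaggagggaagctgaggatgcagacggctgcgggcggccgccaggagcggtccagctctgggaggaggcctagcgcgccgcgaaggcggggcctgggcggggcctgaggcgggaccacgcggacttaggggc
RefSeq held promoters of 300 bases, from 250 before to 50 after the start, for 35 of the 39 members. A match to the PPARα repeat with at most 2 mismatches stood in the promoters of 6 members, Acot12, Acox2, Cat, Echs1, Etfa and Slc25a20, and in 3.86% of all 32851 promoters. With at most 1 mismatch, Acot12 was the 1 member that matched, with TGACCTCTCACCT on the opposite strand 110 to 98 bases before the start, against 0.554% of all promoters. The HNF1 palindrome was searched after the Hao2 sequence had been seen. With at most 2 mismatches it matched Hao2, with GTTAATAAGCAAC 224 to 212 bases before the start, and no other member, against 1.36% of all promoters, where overlapping starts of 1 gene count separately.

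The libraries held 32592517 to 54906972 estimated reads. In the tubule libraries the 19 proximal tubule markers summed to 17710 to 43960 CPM, counts scaled to library size, and 12 endothelial markers to 174.7 to 480.4 CPM. In the endothelial preparations the endothelial markers reached 566.1 to 2364 CPM, but the proximal tubule markers still summed to 15260 to 41020 CPM and the 10 markers of the thick ascending limb and distal nephron to 10400 to 22140 CPM. None of the 19 tubule or 12 endothelial markers was at 0 in any library. These preparations are therefore called CD31 isolates here, and their values describe a mixture with much tubule RNA. In replicate 3 of the sham male tubules, 86.84% of reads fell on protein-coding genes and 7.064% on mitochondrial genes. The other tubule libraries had at least 91.73% and 9.982%. That replicate had the lowest level of its group for 20 members, against 42.4% of all genes tested, and it was kept in the main fits. Replicate 3 of the injured male tubules stood apart from the other injured male tubule libraries. Kap, the androgen-regulated kidney protein, was at 18620 and 19050 CPM in replicates 1 and 2 and at 4253 CPM in replicate 3, and Plin2, which coats lipid droplets, was at 2471, 2341 and 384.3 CPM. Counts of members called in tubules are given with and without replicate 3 of the injured males. Most values of single genes, and the counts for lists of other genes, are given only with it. In bulk RNA, fewer cells of a type and less RNA per cell cannot be told apart.

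On the length-normalised TPM scale, 16 of the 39 members exceeded 100 TPM in sham tubules and 4 were below 30 TPM. Medium-chain acyl-CoA dehydrogenase Acadm stood at 892 TPM, the very-long-chain fatty acid transporter and synthetase Slc27a2 at 871 TPM and the electron transfer flavoprotein subunit Etfb at 842 TPM, as means over the sham libraries. Hao2 followed among the peroxisomal members at 409 TPM and catalase, Cat, at 309 TPM. The lowest levels were those of Ppara itself at 24.1 TPM, the carnitine carrier Slc25a20 at 16.8 TPM, the transporter Slc27a1 at 10.1 TPM and the mitochondrial thioesterase Acot2 at 8.05 TPM. In the sham CD31 isolates Etfb was at 841 TPM, Slc27a2 at 798 TPM, Acadm at 672 TPM and Hao2 at 366 TPM.

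Summed over the 39 members, the tubule libraries held 6757 ± 721 TPM (SD, n = 3) in sham females and 6458 ± 505 TPM (SD, n = 3) in injured females. Sham males held 6369 ± 474 TPM (SD, n = 3), and the injured male libraries stood at 3891, 3340 and 5422 TPM, mean 4218 ± 1079 (SD, n = 3). All 3 injured male sums lay below the lowest sum of any other tubule group, 5992 TPM, while the other groups overlapped. The CD31 isolates gave 6470 ± 87.0 TPM (SD, n = 2) in sham females, 6606 ± 1115 TPM (SD, n = 3) in injured females, 5872 ± 926 TPM (SD, n = 3) in sham males and 3967 ± 1011 TPM (SD, n = 3) in injured males. The markers of the proximal tubule were also lower after injury. Without Kap and Slc7a13, which differ by sex and were left out after their values were seen, 17 markers summed in tubules to 23170, 24190 and 27350 CPM in sham males and to 18580, 14150 and 13360 CPM in injured males. In females they summed to 31180, 30960 and 28280 CPM after sham and to 24350, 21880 and 23350 CPM after injury. Replicate 3 of the injured males had the lowest marker sum and the highest member sum of its group, and in females the markers did not overlap between sham and injury while the member sums did. The part of these markers' shift in the change of the members was not tested in tubules.

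**Figure D1:**
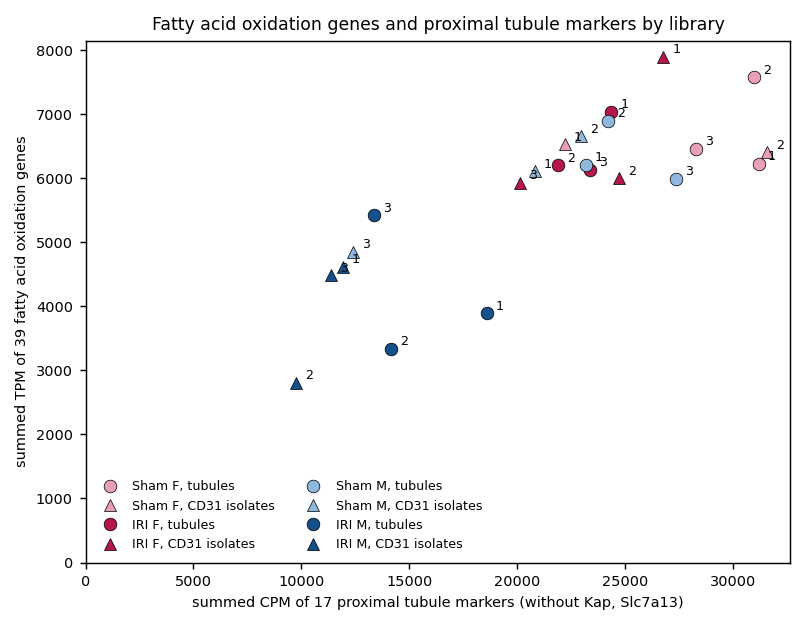
Each point is 1 library: the horizontal axis gives the summed CPM of 17 proximal tubule markers and the vertical axis the summed TPM of the 39 fatty acid oxidation genes, both from 0. Injured male libraries of both preparations sit toward the lower left, with tubule sums of 3891, 3340 and 5422 TPM, replicate 3 being the highest. Replicate 3 of the sham male CD31 isolates sits among them, at 12380 CPM and 4851 TPM.

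In tubules of males, injury was followed by lower levels of peroxisomal and mitochondrial oxidation genes and by a higher level of 1 thioesterase. Of the 39 members, 12 fell, 1 rose and 26 did not pass the test, edgeR's quasi-likelihood test with Benjamini-Hochberg adjustment over all 18369 genes at an adjusted p under 0.05. Over all genes tested, 19% were called, 10.6% higher and 8.43% lower. The median log2 change was -0.36 for the members and -0.03 for all genes tested, with 30 members below and 9 above 0. In 15 members every injured male library lay below every sham male library and in 2 members above, against 16.7% and 14.1% of all genes tested. Injury markers, 8 of 8, rose in the same comparison, while 12 of 19 proximal tubule markers and 6 of 8 straight segment markers fell, with median log2 changes of -0.85 and -1.67 for the marker lists. The share of those falls in the members' change was not tested.

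The member with the steepest fall was Hao2, at 3:98874521-98893239 on the minus strand (GRCm38). It was at 1037, 1401 and 839.6 CPM in sham males and at 262.4, 237.1 and 100.4 CPM in injured males. The groups did not overlap, and the log2 change was -2.45 ± 0.31 (SE; edgeR adjusted p = 0.00118). Pecr, at 1:72259167-72284314 on the minus strand, was at 505.2, 516.6 and 482.9 CPM in sham males and at 209.4, 198.8 and 191.7 CPM in injured males. Libraries within each group differed little and the groups stood far apart, with a log2 change of -1.33 ± 0.10 (SE; edgeR adjusted p = 8.73e-05), the smallest p among the members. Acox2, the peroxisomal oxidase of branched chains and bile acid intermediates, at 14:8225511-8259353 on the minus strand, stood at 100.1, 108.6 and 81.88 CPM and at 30.86, 41.78 and 35.63 CPM after injury. All injured libraries were below all sham libraries, and the log2 change was -1.42 ± 0.15 (SE; edgeR adjusted p = 0.000402).

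Among the genes of uptake and activation, 1 of 3 fell. Slc27a2 stood at 4083, 4329 and 3692 CPM in sham males and at 2418, 1952 and 1585 CPM in injured males, a change of -1.02 ± 0.15 (SE; edgeR adjusted p = 0.00262) on the log2 scale with no overlap. The synthetase Acsl1 was at 131.5, 160.2 and 159.5 CPM and at 202.1, 181.8 and 173.6 CPM, all injured libraries above all sham ones, with 0.31 ± 0.14 (SE; edgeR adjusted p = 0.134). In the carnitine shuttle 1 of 5 fell, and that was Crot, the peroxisomal octanoyltransferase. Its levels were 340.4, 289.7 and 273.1 CPM in sham males against 182.6, 166.0 and 203.6 CPM in injured males, a log2 change of -0.71 ± 0.13 (SE; edgeR adjusted p = 0.00728). Cpt1a, the rate-limiting carnitine palmitoyltransferase of the outer mitochondrial membrane, had overlapping levels of 317.5, 328.4 and 466.4 CPM and of 404.5, 311.9 and 336.2 CPM. Its log2 change was -0.08 (edgeR adjusted p = 0.788). The receptor Ppara did not pass either, at 46.02, 35.95 and 74.85 CPM in sham males and 90.26, 61.19 and 66.97 CPM in injured males (log2 change 0.48 ± 0.26 SE, edgeR adjusted p = 0.206).

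Of the 7 mitochondrial dehydrogenase and electron transfer genes, 4 fell in injured males: Acadm, Acads, Etfa and Etfb. Acadm stood at 973.0, 1010 and 777.9 CPM in sham males and 587.1, 579.5 and 439.8 CPM in injured males, without overlap (log2 change -0.78 ± 0.17 SE, edgeR adjusted p = 0.013). The short-chain dehydrogenase Acads changed by -0.45 ± 0.10 (SE; edgeR adjusted p = 0.0155), and Etfa and Etfb, the subunits of electron transfer flavoprotein, changed by -0.43 ± 0.11 and -0.63 ± 0.16 on the log2 scale (edgeR adjusted p = 0.0248 and 0.0243). The next steps of the cycle held 1 fall among 5 genes, Hadh, the dehydrogenase of 3-hydroxyacyl-CoA, at 584.9, 628.7 and 623.5 CPM in sham males and 497.7, 500.4 and 432.5 CPM in injured males (log2 change -0.36 ± 0.11 SE, edgeR adjusted p = 0.0481).

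Peroxisomal β-oxidation held 2 falls among 6 genes, Acox2 and the branched-chain oxidase Acox3. Acox3 was at 254.4, 297.2 and 349.9 CPM in sham males and at 171.6, 123.7 and 137.7 CPM in injured males, again without overlap (log2 change -1.06 ± 0.16 SE, edgeR adjusted p = 0.00244). Among the other peroxisomal proteins 2 of 5 fell, Hao2 and Cat. Cat stood at 935.2, 979.4 and 1105 CPM against 515.7, 510.5 and 795.5 CPM, with a log2 change of -0.73 ± 0.18 (SE; edgeR adjusted p = 0.0223). Pecr was the 1 of 4 auxiliary enzymes that fell. Eci2, an isomerase for unsaturated chains, had 122.5, 110.8 and 103.2 CPM in sham males and 161.9, 151.1 and 120.8 CPM in injured males, which overlapped (log2 change 0.37, edgeR adjusted p = 0.0876).

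The single member that rose was Acot2, at 12:83987861-83993873 on the plus strand. It stood at 40.98, 39.78 and 25.61 CPM in sham males and at 137.6, 107.6 and 72.03 CPM in injured males. Every injured library was above every sham library, with a log2 change of 1.58 ± 0.31 (SE; edgeR adjusted p = 0.00829). Acot2 lies beside the near-identical Acot1, at 12:84009490-84018371, which codes for the cytosolic enzyme, so the split of reads between them is uncertain. Acot1 alone was at 73.68, 84.08 and 44.34 CPM in sham males and 91.82, 68.95 and 101.4 CPM in injured males (log2 change 0.38 ± 0.29 SE, edgeR adjusted p = 0.378). With the counts of both summed, the pair rose by 0.91 ± 0.27 (SE; edgeR adjusted p = 0.0408) on the log2 scale. The thiolases Acaa1a and Acaa1b are near-identical as well, and their summed counts changed by -0.02 ± 0.24 on the log2 scale (SE, edgeR adjusted p = 0.965).

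The 26 members that did not pass the test in injured males had log2 changes from -0.60 ± 0.40 (SE) for Hacl1 to 0.48 ± 0.26 (SE) for Ppara. Ehhadh, the bifunctional hydratase and dehydrogenase of peroxisomes, was at 1076, 1026 and 864.6 CPM in sham males and at 897.6, 684.6 and 817.6 CPM in injured males, which overlapped (log2 change -0.31 ± 0.19 SE, edgeR adjusted p = 0.26). Phyh, the hydroxylase that starts α-oxidation of phytanic acid, had 721.5, 697.5 and 749.9 CPM against 703.3, 684.6 and 418.1 CPM, with replicate 3 far below the other injured libraries (log2 change -0.26 ± 0.17 SE, edgeR adjusted p = 0.298). Echs1, the short-chain hydratase of the mitochondrial cycle, overlapped as well, at 250.4, 253.2 and 210.2 CPM against 214.8, 234.9 and 163.7 CPM (log2 change -0.22 ± 0.14 SE, edgeR adjusted p = 0.291). Pex11a, which drives peroxisome division, stood at 50.41 to 65.97 CPM in sham males and 56.58 to 74.36 CPM in injured males (log2 change 0.11 ± 0.17 SE, edgeR adjusted p = 0.683).

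**Figure D2:**
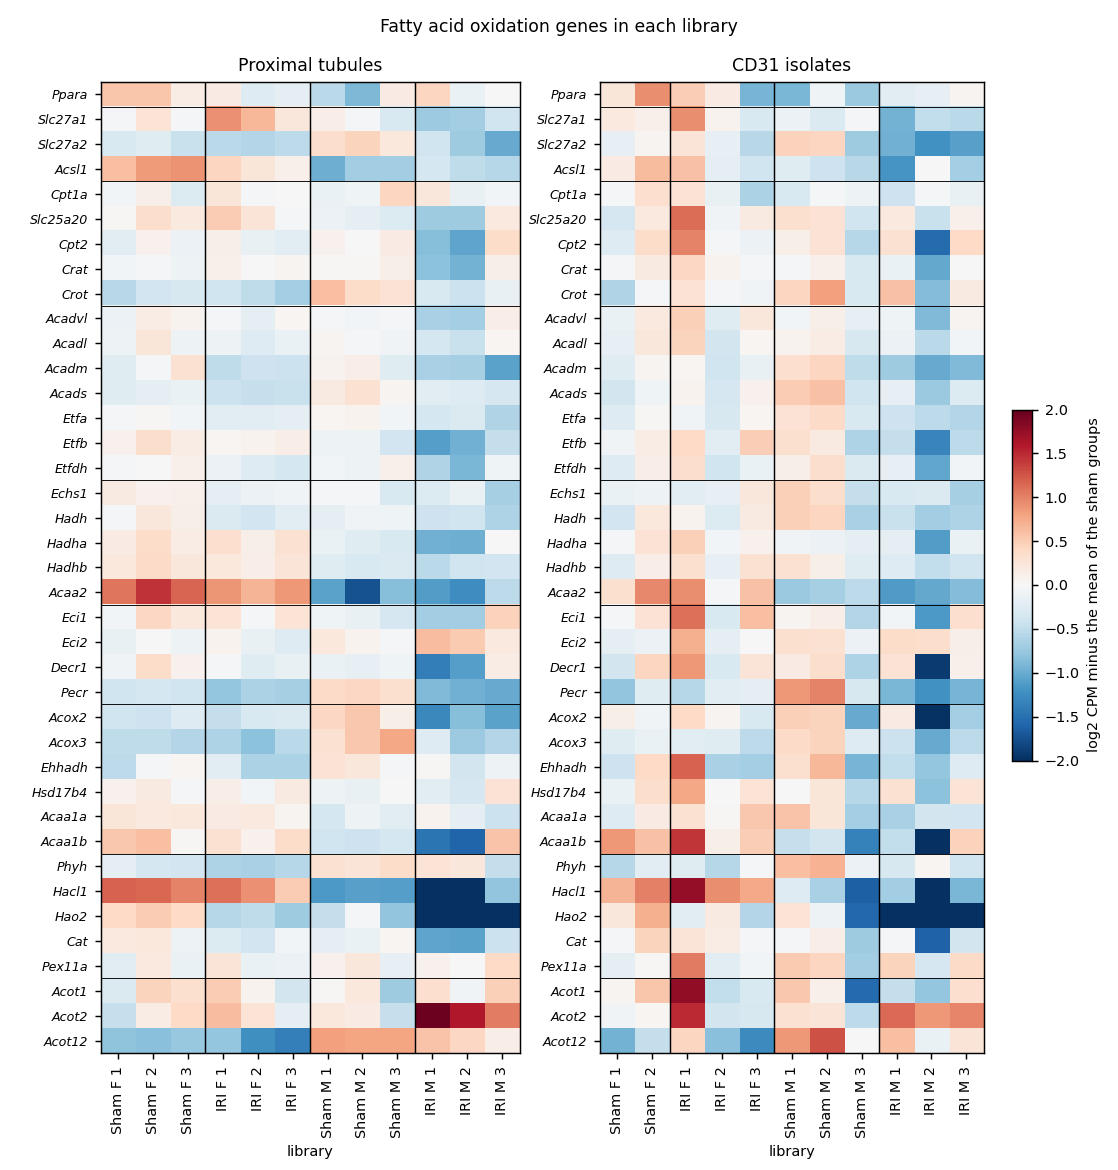
Colour gives log2 CPM of each of the 39 genes (vertical axis, ordered by role) minus the mean of the sham groups, in every library (horizontal axis) of tubules and CD31 isolates. Blue fields in the injured male columns mark lower levels, as for Hao2 at 262.4, 237.1 and 100.4 CPM in tubules, and replicate 3 of that group differs from replicates 1 and 2 for many members.

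Replicate 3 of the injured male tubules had the highest level of its group for 20 members and the lowest for 14, against 42.4% and 42.7% of all genes tested. In 12 members, Acaa1b, Acadl, Acadvl, Cpt2, Crat, Decr1, Eci1, Etfdh, Hacl1, Hadha, Hsd17b4 and Slc25a20, replicates 1 and 2 lay below every sham male library and replicate 3 did not. The same held for 16.1% of all genes tested, and for 2% and 1.45% of them when replicate 1 or 2 was the exception. Decr1, the 2,4-dienoyl-CoA reductase needed for polyunsaturated chains, shows the pattern with 114.0, 138.1 and 329.6 CPM against 270.0, 265.1 and 278.4 CPM in sham males. Crat, which moves acetyl groups onto carnitine, was at 82.98, 76.3 and 159.7 CPM against 150.2, 149.2 and 160.3 CPM. In both genes replicates 1 and 2 were low and replicate 3 was within or above the sham range.

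Without replicate 3, 24 members fell, 2 rose and 13 did not pass the test in injured males, against 22.5% of 19309 genes called lower and 20% called higher. Crat then changed by -0.94 ± 0.09 (SE; edgeR adjusted p = 1e-05) and Cpt2, the inner membrane carnitine palmitoyltransferase, by -1.04 ± 0.13 (SE; edgeR adjusted p = 0.000102) on the log2 scale. With it their adjusted p values from edgeR were 0.119 and 0.296. Hao2, Pecr and Acox2 were called either way, at -2.13, -1.30 and -1.42 without replicate 3. Leaving out replicate 2 of the sham males instead left 7 members called, and a fit of the male tubule groups alone called 3. The distal nephron markers also set replicate 3 apart, at 2334 CPM against 6224 and 6112 CPM in replicates 1 and 2. With distal and collecting duct markers as a covariate and all libraries kept, 14 members were called in injured males. Apart from the fit without replicate 3, the shares of all genes called in these fits are not given here.

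In tubules of females no member passed the test after injury, and neither did almost any other gene, since 0.0109% of the genes tested were called. In the edgeR fit 7 members had an unadjusted p under 0.05, against 11.1% of all genes, and DESeq2 called 4 members at an adjusted p under 0.05, against 3.76% of all genes. The median log2 change was -0.15 for the members and 0.00 for all genes tested. In 12 members all injured female libraries lay below all sham female libraries and in 1 above, against 11.8% and 15.3% of all genes tested. Hao2 was among the 12, with 1908, 2053 and 1911 CPM after sham and 972.7, 1020 and 886.7 CPM after injury (log2 change -1.03 ± 0.30 SE, edgeR adjusted p = 0.187). Acsl1 stood at 393.4, 463.6 and 482.7 CPM and at 347.0, 304.6 and 276.9 CPM, also without overlap (log2 change -0.53 ± 0.14 SE, edgeR adjusted p = 0.147). Crat was the member above, at 141.9, 144.5 and 137.3 CPM after sham and 157.1, 146.2 and 153.3 CPM after injury, a difference of 0.11 on the log2 scale. The markers of the proximal tubule had a median log2 change of -0.37 in females, with none of 19 called, and the distal markers summed to 2992 to 3385 CPM after sham and 7515 to 9877 CPM after injury. With distal and collecting duct markers as a covariate no member was called in females either. Without replicate 3 of the injured males, which entered the shared estimate of spread, 3 members were called in females, against 2.59% of all genes tested. A fit of the female tubule groups alone called 4, and its share of all genes is not given here.

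The response to injury differed between the sexes for Pecr and Acox2. The test of the difference itself called 2 members, both lower in males, against 0.855% of all genes tested, 0.474% in the lower direction. Pecr had been at 294.2, 302.8 and 294.3 CPM in sham females and 226.6, 249.0 and 243.0 CPM in injured females, so that its log2 change there was -0.31 ± 0.10 (SE; edgeR adjusted p = 0.235). The male response was 1.02 ± 0.14 (SE) log2 units below the female one, a difference of -1.02 (edgeR adjusted p = 0.0122). Acox2 in females stayed between 56.29 and 62.47 CPM after sham and between 54.21 and 61.43 CPM after injury, with full overlap. Its male response differed from the female one by -1.43 ± 0.21 (SE; edgeR adjusted p = 0.0161). Both calls were lost, at -0.94 and -1.23, when distal and collecting duct markers entered the fit as a covariate. No member was called without replicate 2 or 3 of the sham females, replicate 1 of the sham males, or replicate 2 or 3 of the injured females, and 1 without replicate 1 of the sham females. Without replicate 3 of the injured males 21 were called, 18 lower and 3 higher, against 30.5% of all genes tested, 17.3% lower and 13.2% higher. Hao2 then differed by -1.10 ± 0.24 (SE, edgeR adjusted p = 0.00508) and Acot2 by 1.59 ± 0.39 (SE, edgeR adjusted p = 0.0101). With that replicate kept they had adjusted p values from edgeR of 0.118 and 0.131. With all libraries kept and Acot2 summed with Acot1, the difference was 0.90 ± 0.39 (SE, edgeR adjusted p = 0.228).

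**Figure D3:**
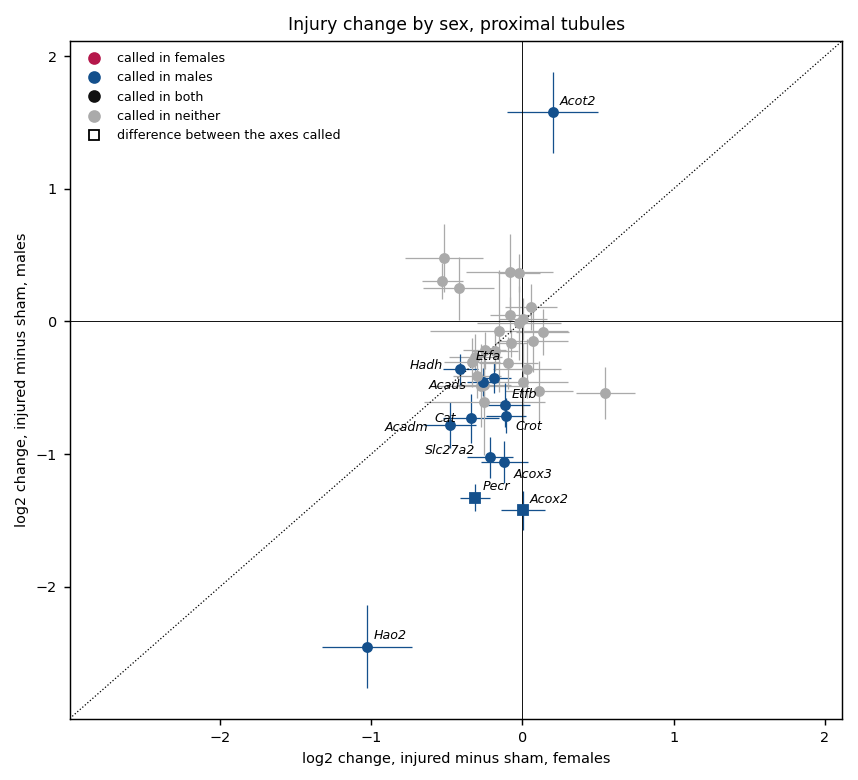
Each point is 1 of the 39 genes, with its log2 injury change in female tubules on the horizontal axis and in male tubules on the vertical axis, bars for SE, and a dotted line of equal change. Squares mark Pecr and Acox2, whose male changes of -1.33 and -1.42 lie below the line, while no member was called in females.

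Averaged over the sexes, 11 members fell and 1 rose after injury, against 4.81% and 6.93% of all genes tested. Hao2 had the steepest mean change, -1.74 ± 0.21 (SE) on the log2 scale, and Acot2 rose by 0.89. Summed with the near-identical Acot1, the change was 0.46 ± 0.19 (SE, edgeR adjusted p = 0.134), which did not pass. The count of members called was 7 without replicate 2 of the sham females or of the injured females, and 4 with the distal and collecting duct covariate. For those fits the shares of all genes are not given here. It was 25 without replicate 3 of the injured males, when 38.7% of all genes tested were called against 11.7% with it.

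Tubules of sham males and females already differed in members of several roles. In males 6 members were higher and 4 lower, against 3.24% and 2.56% of all genes tested, 5.8% in either direction. Acot12 was at 106.2, 103.6 and 109.1 CPM in females and at 327.2, 319.5 and 319.8 CPM in males, with narrow groups far apart (log2 difference, male minus female, 1.60 ± 0.16 SE, edgeR adjusted p = 0.000201). Acaa2, the thiolase that closes the mitochondrial cycle for medium and long chains, was at 271.7, 349.6 and 288.0 CPM in females and at 61.3, 38.35 and 71.06 CPM in males. Every male library was below every female one, and the log2 difference was -2.41 ± 0.25 (SE; edgeR adjusted p = 0.000202). Acsl1 was lower in males as well, by -1.57 ± 0.14 on the log2 scale (edgeR adjusted p = 8.83e-05), and Hadhb, the β subunit of the trifunctional protein, by -0.55 ± 0.11 (SE; edgeR adjusted p = 0.01). Hacl1, the lyase of peroxisomal α-oxidation, was at 202.9, 199.3 and 178.1 CPM in females and 40.4, 42.26 and 41.63 CPM in males (log2 difference -2.22 ± 0.42 SE, edgeR adjusted p = 0.00887).

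The other members higher in sham males were Pecr, Acox2, Acox3, Crot and Slc27a2. Their log2 differences, male minus female, were 0.76 ± 0.10, 0.72 ± 0.15, 1.08 ± 0.16, 0.84 ± 0.13 and 0.67 ± 0.15 (SE), with adjusted p values from edgeR of 0.00101, 0.0136, 0.0018, 0.0035 and 0.0247. This comparison and that of injured with sham males share the sham male libraries. The straight segment markers moved with these genes, with 5 of 8 higher in sham males and summed levels of 5284 to 5495 CPM against 1321 to 1645 CPM in sham females. These markers include Slc7a13, which was left out of the sums above because it differs by sex. Their part in the sex difference was not tested. In 9 members all male libraries lay above and in 14 below all female libraries, against 15.2% and 14.6% of all genes tested. Without replicate 3 of the injured males, 17 members were called between the sham sexes, against 13.6% of all genes tested. A fit of the sham groups alone called 16, and its share of all genes is not given here.

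After injury 4 members were higher and 10 lower in males than in females, against 12.8% and 10.5% of all genes tested, 23.3% in either direction. In 14 members all injured male libraries lay below all injured female ones and in 5 above, against 21.9% and 17.6% of all genes tested. Acot12 kept its direction at 276.1, 245.5 and 203.9 CPM in males and 108.2, 79.44 and 71.72 CPM in females (log2 difference 1.48 ± 0.16 SE, edgeR adjusted p = 0.000336). Acaa2 also did, at 59.58, 54.17 and 89.19 CPM in males against 238.4, 206.9 and 234.3 CPM in females (log2 difference -1.74 ± 0.24 SE, edgeR adjusted p = 0.00114). Acox2 was higher in sham males and lower in injured males than in females of the same group, with -0.70 ± 0.15 (SE; edgeR adjusted p = 0.00762) after injury, and Hao2 differed by -2.26 ± 0.31 (SE; edgeR adjusted p = 0.00103). Slc27a1 stood at 15.63, 16.08 and 19.59 CPM in injured males, below every injured female library (log2 difference -1.23 ± 0.20 SE, edgeR adjusted p = 0.00217). Hadha, the α subunit of the trifunctional protein, was lower by -0.83 ± 0.23 (SE; edgeR adjusted p = 0.0226), and replicate 3 at 270.3 CPM stood above replicates 1 and 2 at 140.8 and 137.9 CPM. Without replicate 3 the lower calls numbered 20 and the higher ones 4, against 23.7% and 20.4% of all genes tested. Leaving out replicate 3 of the injured females or replicate 1 of the injured males left 9 members called.

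**Figure D4:**
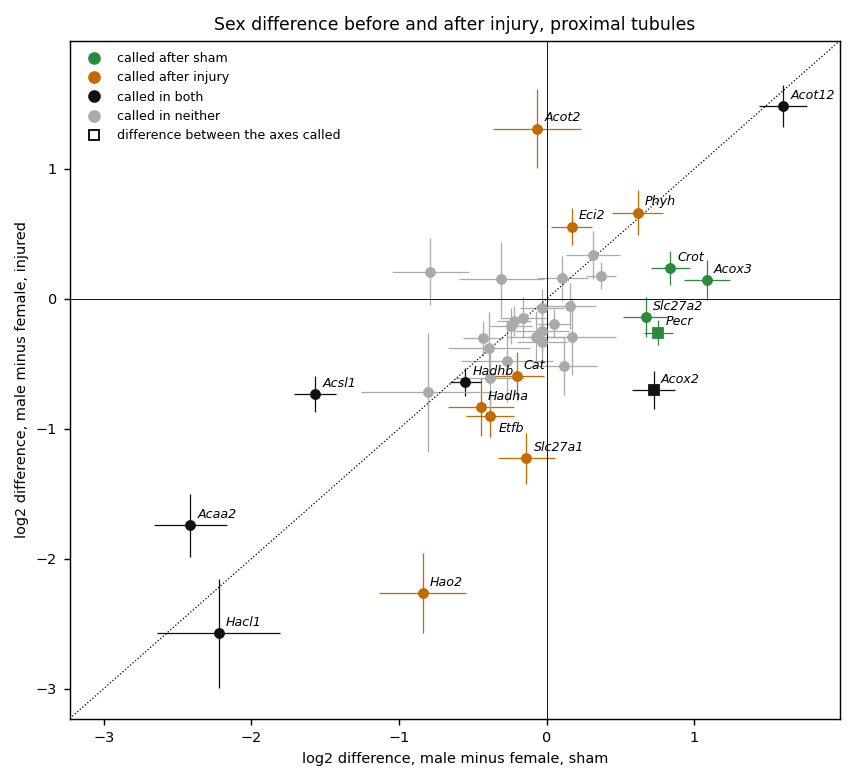
Each point is 1 of the 39 genes, with the log2 difference of male minus female tubules after sham on the horizontal axis and after injury on the vertical axis, bars for SE, and a dotted line of equal difference. Acot12 lies at the upper right (1.60 and 1.48), Acaa2 at the lower left (-2.41 and -1.74), and Acox2 at the lower right (0.72 and -0.70).

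Genes around the members were read from lists of the same pathway. Of 38 other enzymes of fatty acid oxidation, 15 fell and 1 rose in injured male tubules, with a median log2 change of -0.44, against 8.43% of all genes tested called lower and 10.6% higher. Amacr, the racemase that prepares branched chains for peroxisomal oxidation, was at 437.4, 404.2 and 449 CPM in sham males and 73.46, 74.35 and 144.8 CPM in injured males (log2 change -2.14 ± 0.23 SE, edgeR adjusted p = 0.00047). Of 19 peroxisome biogenesis genes 7 fell and none rose, and of 13 other peroxisomal oxidases and antioxidants 6 fell and 1 rose, against the same shares of all genes. Agps, which makes ether lipids in peroxisomes, stood at 615, 533.8 and 615.2 CPM in sham males, 149.6, 147.4 and 153.8 CPM in injured males and 52.5 to 81.59 CPM in sham females. Its log2 change in males was -1.97 ± 0.16 (SE; edgeR adjusted p = 0.000129), and the male response differed from the female one by -1.90 (edgeR adjusted p = 0.00341).

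Among 30 regulators of the pathway, 4 fell and 1 rose in injured males, against 8.43% and 10.6% of all genes. Ppargc1a, the coactivator of mitochondrial genes, was at 53.92, 47.09 and 59.05 CPM in sham males and at 16.46, 18.01 and 44.96 CPM in injured males (log2 change -1.01 ± 0.31 SE, edgeR adjusted p = 0.0441). Sirt3, a mitochondrial deacetylase, fell from 89.82, 91.39 and 88.15 CPM to 33.63, 34.04 and 47.86 CPM (edgeR adjusted p = 0.000965). Of 19 other PPARα targets and ketone body genes 4 rose and 1 fell. Plin2 rose by 4.23 ± 0.55 (SE; edgeR adjusted p = 0.00133) from 98.74, 93.6 and 84.08 CPM in sham males to the injured levels given above, and its male response exceeded the female one by 4.02 (edgeR adjusted p = 0.0331). Pdk4, the kinase that turns off pyruvate oxidation, had 270.9, 230.6 and 9.227 CPM in sham males and 2914, 2045 and 212.7 CPM in injured males, which overlapped (edgeR adjusted p = 0.0512). Replicate 3 was the low library in each of these groups for Pdk4. Of 13 uptake and binding genes 3 rose and 2 fell, of 9 other thioesterases 2 rose and 1 fell, and of 16 synthesis and elongation genes 4 fell and none rose, again with 8.43% of all genes lower and 10.6% higher. In female tubules no gene of these 8 lists was called.

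Between sham males and females, 5 of the 38 other oxidation enzymes were higher in males and 4 lower, against 3.24% and 2.56% of all genes tested. Agps was higher by 3.16 ± 0.16 (SE; edgeR adjusted p = 2.87e-06). Of the other PPARα targets and ketone body genes 5 of 19 were higher in males and none lower. Of the 13 uptake and binding genes 1 was higher and 2 lower, with the same 3.24% and 2.56% of all genes as background to both lists. The higher one was Cd36, a fatty acid translocase of the plasma membrane, at 51.14, 16.96 and 50.4 CPM in sham females and 835.8, 787.8 and 762.6 CPM in sham males (log2 difference 4.33 ± 0.40 SE, edgeR adjusted p = 0.000123). Cyp4a14, an ω-hydroxylase of fatty acids, was at 1168, 1995 and 1296 CPM in females and 99.13, 39.95 and 113.5 CPM in males, without overlap but with no call (edgeR adjusted p = 0.138). Its injured male libraries stood at 2.829, 5.234 and 486.7 CPM, and replicate 3 was again the one apart.

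In the CD31 isolates of males, injury was followed by falls of Hao2 and Pecr, against 0.864% of all 19910 genes tested called, 0.326% lower and 0.537% higher. In 9 members all injured libraries lay below all sham libraries and in 1 above, against 8.96% and 8.81% of all genes tested. Hao2 stood at 1490, 1144 and 415 CPM in sham males and 148.8, 145.6 and 86.61 CPM in injured males, without overlap (log2 change -3.0 ± 0.45 SE, edgeR adjusted p = 0.0163). Pecr had 485.5, 527.5 and 212.6 CPM and 140.3, 115.2 and 139.2 CPM after injury, again without overlap (log2 change -1.64 ± 0.32 SE, edgeR adjusted p = 0.0464). The median over the members was -0.37 on the log2 scale. The 17 proximal tubule markers moved with both genes, at 20810, 22960 and 12380 CPM in sham males and 11910, 9752 and 11380 CPM in injured males. With the list of 19 proximal tubule markers as a covariate, Kap and Slc7a13 included, no member was called. Hao2 was then at -1.22 and Pecr at -0.22 on the log2 scale, and the members' median turned to 0.29. The share of all genes called in that fit is not given here.

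Replicate 3 of the sham male isolates had the lowest level of its group for 35 of the 39 members, against 42.2% of all genes tested. Its 17 proximal tubule markers were the lowest of the group, at 12380 CPM, and its endothelial markers the highest, at 2153 CPM. Without this replicate 7 members fell in injured males, against 1.79% of all genes tested called lower. They were Hao2, Pecr, Slc27a2, Acadm, Acox3, Etfa and Hadh, and the part of the marker difference in these falls was not tested. None was called without replicate 1 or 2 of the sham males or replicate 1 of the injured males, and 1 without any other of the remaining 7 libraries. For these fits the shares of all genes called are not given here. In the isolates of females no member was called after injury, with none at an unadjusted p under 0.05 (2.39% of all genes) and none by DESeq2 (0.167% of all genes), and 0% of all genes tested were called.

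Isolates of injured males and females differed in Hao2 and Acaa2, both lower in males, against 1.5% of all genes tested called, 0.834% lower and 0.663% higher. Acaa2 stood at 83.41, 90 and 100.8 CPM in injured males and at 350.2, 180.4 and 276.2 CPM in injured females, with a log2 difference of -1.56 ± 0.26 (SE; edgeR adjusted p = 0.0169). Hao2 in the same females was at 1049, 1390 and 822.4 CPM, well above the males (log2 difference -3.10 ± 0.45 SE, edgeR adjusted p = 0.00779). Neither was called with the 19 proximal tubule markers as a covariate, at -2.11 for Hao2 and -1.62 for Acaa2. Those markers include Kap, at 48.6, 144.3 and 89.41 CPM in these females and 6071, 8467 and 3810 CPM in these males. The covariate thus also carries sex, and this fit cannot separate sex from tubule content. Without replicate 1 or 3 of the injured females or replicate 1 of the injured males 1 member was called, and 4 without replicate 3 of the sham males. The shares of all genes called in these fits and in the covariate fit are not given here. In sham isolates no member differed between the sexes by the edgeR fit, with 7 at an unadjusted p under 0.05 (6.81% of all genes) and 1 called by DESeq2 (1.96% of all genes), against 0.432% of all genes, 0.276% higher and 0.156% lower. The mean injury response of both sexes likewise held no edgeR call, with 6 members at an unadjusted p under 0.05 (9.82% of all genes) and 1 DESeq2 call (2.8% of all genes), against 0.196% of all genes, 0.161% higher and 0.0352% lower. For the difference of the injury response between the sexes the edgeR and DESeq2 fits called no member, and 4 had an unadjusted p under 0.05 (6.5% of all genes). Over all genes, edgeR called 0% and DESeq2 0.319%.

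Sham isolates held lower levels than sham tubules for 4 members, Acadm, Pecr, Crot and Phyh, and higher levels for none, against 1.86% and 10.4% of all 21206 genes tested. Acadm differed by -0.60 ± 0.15 (SE; edgeR adjusted p = 0.0143) and Pecr by -0.62 ± 0.17 (SE; edgeR adjusted p = 0.0169) on the log2 scale, isolate minus tubule. Phyh differed by -0.48 ± 0.15 (SE; edgeR adjusted p = 0.0432). None was called without replicate 1 of the sham female isolates, 2 without any of 6 other libraries (replicate 3 of the sham or injured male isolates, replicate 2 or 3 of the sham female tubules, replicate 1 of the sham male tubules and replicate 3 of the injured female tubules), and 7 without replicate 2 of the sham or injured male isolates. Shares of all genes called in these reduced fits are not given here, and without replicate 1 the sham female isolates held a single library. The injury response did not differ between the preparations for any member in the edgeR or DESeq2 fit. No member had an unadjusted p under 0.05 (4.77% of all genes). Over all genes, edgeR called 0% and DESeq2 0.113%.

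**Figure D5:**
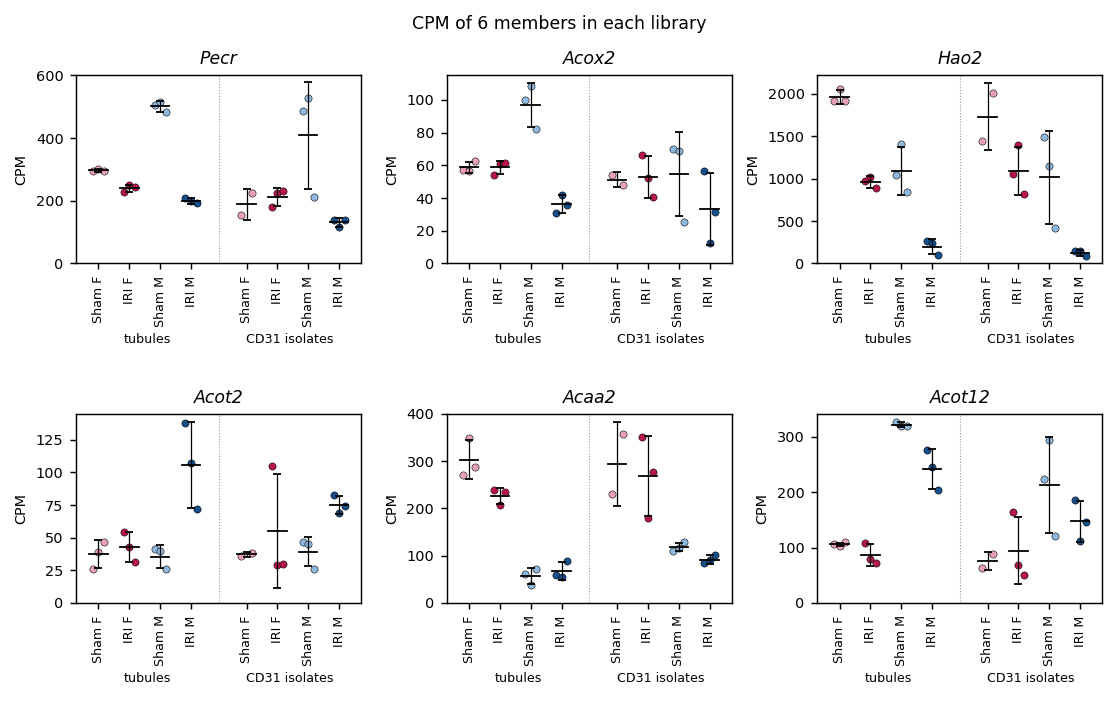
CPM of 6 members in every library, by group, in tubules and CD31 isolates; each point is 1 library and the vertical axes start at 0. Pecr and Acox2 are high in sham male tubules and low in injured ones (Pecr 482.9 to 516.6 against 191.7 to 209.4 CPM), Hao2 is low in injured males of both preparations, and Acaa2 and Acot12 are set apart by sex in tubules.

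Gene counts here summed all annotated transcripts, coding or not. In sham male tubules 10 of the 39 members had under 50% of their TPM in protein-coding transcripts, from 3.05% for Hadha and 21.3% for Acadm to 100% at the other end. Counted in protein-coding transcripts alone, the mean TPM was lower in injured than in sham male tubules for 28 of the 39 members. The assignment of reads among transcripts of 1 gene was the authors' estimate. In the authors' deposited table of injured against sham male tubules, 12 of the 39 members were listed lower and 2 higher at an adjusted p under 0.05. In their table for females 2 were lower and none higher. The share of all genes called in those tables was not counted, so these counts stand without a background.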

How the data were processed

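Messenger RNA had been selected by poly-A, made into libraries with NEBNext Ultra II and sequenced on a NextSeq 500, per the labels' protocols. The authors quantified transcripts with Salmon 0.13.1 on GRCm38, per the submitters' processing notes. The deposited files hold estimated counts and TPM per transcript. The authors' deposited comparison tables hold log2 fold changes and p-values, and DESeq2 is named in the submitters' processing notes.

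From these, transcripts were summed to genes, the estimated counts were rounded to whole numbers, and genes were kept by filterByExpr (minimum count 10, minimum total 15). Replicate 3 of the sham male tubules had been sequenced as a pair of libraries, whose counts were summed. Depth was 32592517 to 54906972 estimated reads per sample, which bounds counting error only. CPM used TMM factors within each preparation. Groups were compared by edgeR 4.0.16 (R 4.3.3), quasi-likelihood test, all groups of a preparation in 1 fit, adjusted over all genes (18369 in tubules, 19910 in isolates). SE is the log2 change divided by the square root of F. Labels give 3 male and 3 female mice per experimental group. Titles carry 1 number across the tubules and isolates of a group, without saying what it marks. Over the 11 pairs it joins, deviations from the group means correlated at -0.43 to 0.575. It was therefore not used as a pairing in the main fits, and served as the block in an alternative fit of isolates against tubules. Alternatives were DESeq2 1.42.0, RLE scaling, no filter, length offsets, a replicate block, marker covariates, summed near-identical genes and each library left out. Scripts were tested on simulated data. Motif search used RefSeq promoters of GRCm38.p6, and gene positions come from GENCODE.

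The members and lists were chosen with earlier results of these data known. All 39 members may be named; from each other list at most 4 genes with the smallest adjusted p were named, plus Ppargc1a, Pdk4, Cd36, Fabp1, Cyp4a14, Plin2, Havcr1, Lrp2, Umod and Pecam1, and some items of the rule are not reported here.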

Additional observations from a re-analysis of the deposited data

Results flagged for a closer look

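The injury response of Pecr in tubules differed between males and females by -1.02 ± 0.14 on the log2 scale (SE; edgeR quasi-likelihood test, Benjamini-Hochberg adjusted p = 0.0122), which is why it is listed here: the difference between the sexes was itself tested. For Acox2 the same difference was -1.43 ± 0.21 (SE; edgeR adjusted p = 0.0161). In both genes the sham male libraries were above the sham female libraries.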

How the results depend on the processing

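For the 59 calls of single members, none of 1301 recalculated values changed direction, while 220 no longer passed the test. Members without a call were not followed in this way, and Pex11a in injured males, for example, went from 0.11 to -0.02 without replicate 3. In injured against sham male tubules 13 members were called, 3 in a fit of those groups alone and 7 to 26 when each library was left out. In females none was called, 4 by DESeq2 (3.76% of all genes) and 4 with those groups alone. Leaving out a library gave 0 to 3. The mean of the sexes gave 12, 4 with the distal covariate and 7 to 25 with a library left out. Between the sexes, sham tubules gave 10, 16 with those groups alone and 7 to 17 with a library left out, and injured tubules 14 and 9 to 24. The difference in injury response gave 2, and 8 by DESeq2 (8.09% of all genes). It gave 0 with the distal covariate and 0 to 21 with a library left out. Among the fits that left out a library, the highest count of each of these tubule comparisons came without replicate 3 of the injured males. Apart from the DESeq2 fits, shares of all genes called are not given for the counts in this section.

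In CD31 isolates, injured against sham males gave 2 members, and 5 by DESeq2 (6.13% of all genes). The count was 1 with length offsets, 0 with those groups alone or the tubule covariate, and 0 to 7 with a library left out. For the mean of the sexes none was called, 1 without the filter and 1 by DESeq2 (2.8% of all genes). Leaving out a library gave 0 to 2. Between sham sexes none was called, 1 without the filter and 1 by DESeq2 (1.96% of all genes). Leaving out a library gave 0 to 1. Injured sexes gave 2, 1 with those groups alone, 0 with the tubule covariate and 1 to 4 with a library left out. Sham isolates against sham tubules gave 4, 9 by DESeq2 (16.9% of all genes) and 0 to 7 with a library left out. With the proximal tubule covariate the members' median log2 change after injury turned from negative to 0.29 in males and 0.29 for the mean of the sexes. The cause of the differences among the counts above was not tested. The reduced fits also held fewer samples.

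Samples with the same replicate number had a median correlation of deviations of 0.00117 over 18 pairs in tubules and -0.106 over 15 pairs in isolates. The numbers were therefore not used to pair the samples in the main fits. These pairs join different groups, so the correlation cannot show whether they shared a batch. A replicate block gave 12 calls for injured male tubules and 13 for the mean of the sexes in tubules. It gave 1 each for injured male isolates and for injured isolates between the sexes. For sham isolates against tubules the block was the number in the titles, and 3 members were called. The other counts were the same as without a block. Groups of 2 or 3 libraries limit every test.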
